A study of Equus asinus with 3 samples.

Results

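The genes described here are named for parts of the axoneme, the microtubule core of cilia and of the sperm tail, or for association with cilia and flagella. They are the 75 features whose names begin with DNAH, DNAI, CFAP, RSPH, TEKT or ODAD, of 34267 features listed in any of 3 single-cell libraries from the donkey (Equus asinus). The rule uses names alone and no measured value, so a member need not be a part of the axoneme. It gave 42 CFAP, 13 DNAH, 6 RSPH, 5 DNAI, 5 TEKT and 4 ODAD genes, and all 75 had a UMI in each library.

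One library came from testis, where the submitters call the cells germ cells. The others came from the caput and the corpus of the epididymis, the first and middle segments of the duct that sperm pass through after leaving the testis, and both are labelled as somatic cells. The design names 3 sexually mature males, does not say which animal gave which library or whether tissue was pooled, and gives no treatment. Every tissue was stored for up to 48 h and digested with collagenase IV and DNase I for 15 min at 37 °C. With 1 library per tissue there is no replicate, so no p-value is given and each interval covers the error of counting UMIs only.

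In an axoneme, a ring of doublet microtubules surrounds a central pair. Dynein arms on the doublets do the sliding: the heavy chains (DNAH) are the motors, the intermediate chains (DNAI) belong to the arm's base, and the docking complex (ODAD) anchors the outer arm. Radial spokes (RSPH) reach toward the central apparatus, tektins (TEKT) form filaments inside the doublet wall, and CFAP is a naming series for many other cilia- and flagella-associated proteins. Male germ cells assemble 1 such structure each as spermatids, while multiciliated epithelial cells build many.

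Depth fell from testis to corpus: 8610 testis barcodes shared 47686179 UMIs (median 4690.5 each), 9478 caput barcodes 13203203 (median 1145) and 9611 corpus barcodes 4142512 (median 371). The same 7161 barcode names occur in all 3, but the names are serial and cannot show whether cells are shared. Cells were clustered within each library without the 75 genes and without 113 other axoneme and cilium genes, and clusters were named from cell type markers, so every name carries "-like". Doublet calling marked 130 testis barcodes (1.51%), which were removed, but 0 in caput and 2 (0.0208%) in corpus, where doublets must be taken to remain. Against its label, the caput library contained 268 germ-like barcodes of 9478 (2.83%), which matter below.

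Of the 8480 testis cells kept, 7080 (83.5%) lay in 11 germ-like clusters, ordered by spermatid over spermatocyte markers and grouped into 4 stages. These were spermatocyte-like (late meiotic markers, 1937 cells), intermediate germ-like (4277), round spermatid-like (683) and elongating spermatid-like (183). The intermediate group was not named by markers of its own. It pools 5 clusters, 50.4% of the testis cells kept, that met no stage's marker rule and lay between the named stages in the order. Levels are CPM, the UMIs of a gene scaled to a fixed total of UMIs of the class, and they are compared across classes for the same gene, never between genes of different length. A cluster of 30 T or NK-like cells, led by stress genes, gives the level of these genes in testis cells that should lack an axoneme: 172 UMIs, or 2427 CPM for the 75 genes together, with 0 UMIs for 27 genes and at most 5 for 69.

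The summed level of the 75 genes was highest in intermediate cells and lowest in elongating cells. It was 12248 CPM (12185 to 12311) in spermatocyte-like, 15147 CPM (15096 to 15197) in intermediate, 13058 CPM (12952 to 13165) in round and 8756 CPM (8556 to 8960) in elongating cells. Along the 11 clusters it climbed from 11604 CPM in the earliest to 15697 CPM in the fifth, and stood at 10091 and 4131 CPM in the elongating pair. All 4 stages lay above the T or NK-like level, by 5.05-fold (4.35 to 5.90) in spermatocyte-like and 3.61-fold (3.10 to 4.22) in elongating cells. With each cell thinned to 1800 UMIs, the median number of these genes detected per cell was 15, 17, 16 and 10 in stage order and 4 in T or NK-like cells.

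Single genes were spread over all stages. Of the 72 genes with at least 50 UMIs in the 4 stages, 22 were highest in spermatocyte-like, 27 in intermediate, 13 in round and 10 in elongating cells (30.6, 37.5, 18.1 and 13.9%). Over all features with that many UMIs the shares were 33.6, 15.4, 26.4 and 24.6%. For 51 of the 72 the interval of the ratio to the next highest stage excluded 1, and for the other 21 the leading pair of stages could not be told apart. The lowest stage was the elongating one for 42 genes and the spermatocyte-like one for 22, among them all 5 tektins. The heat map of the 72 genes shows this spread, with the heavy and intermediate chains mostly brightest on the left and the tektins on the right.

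**Figure D1:**
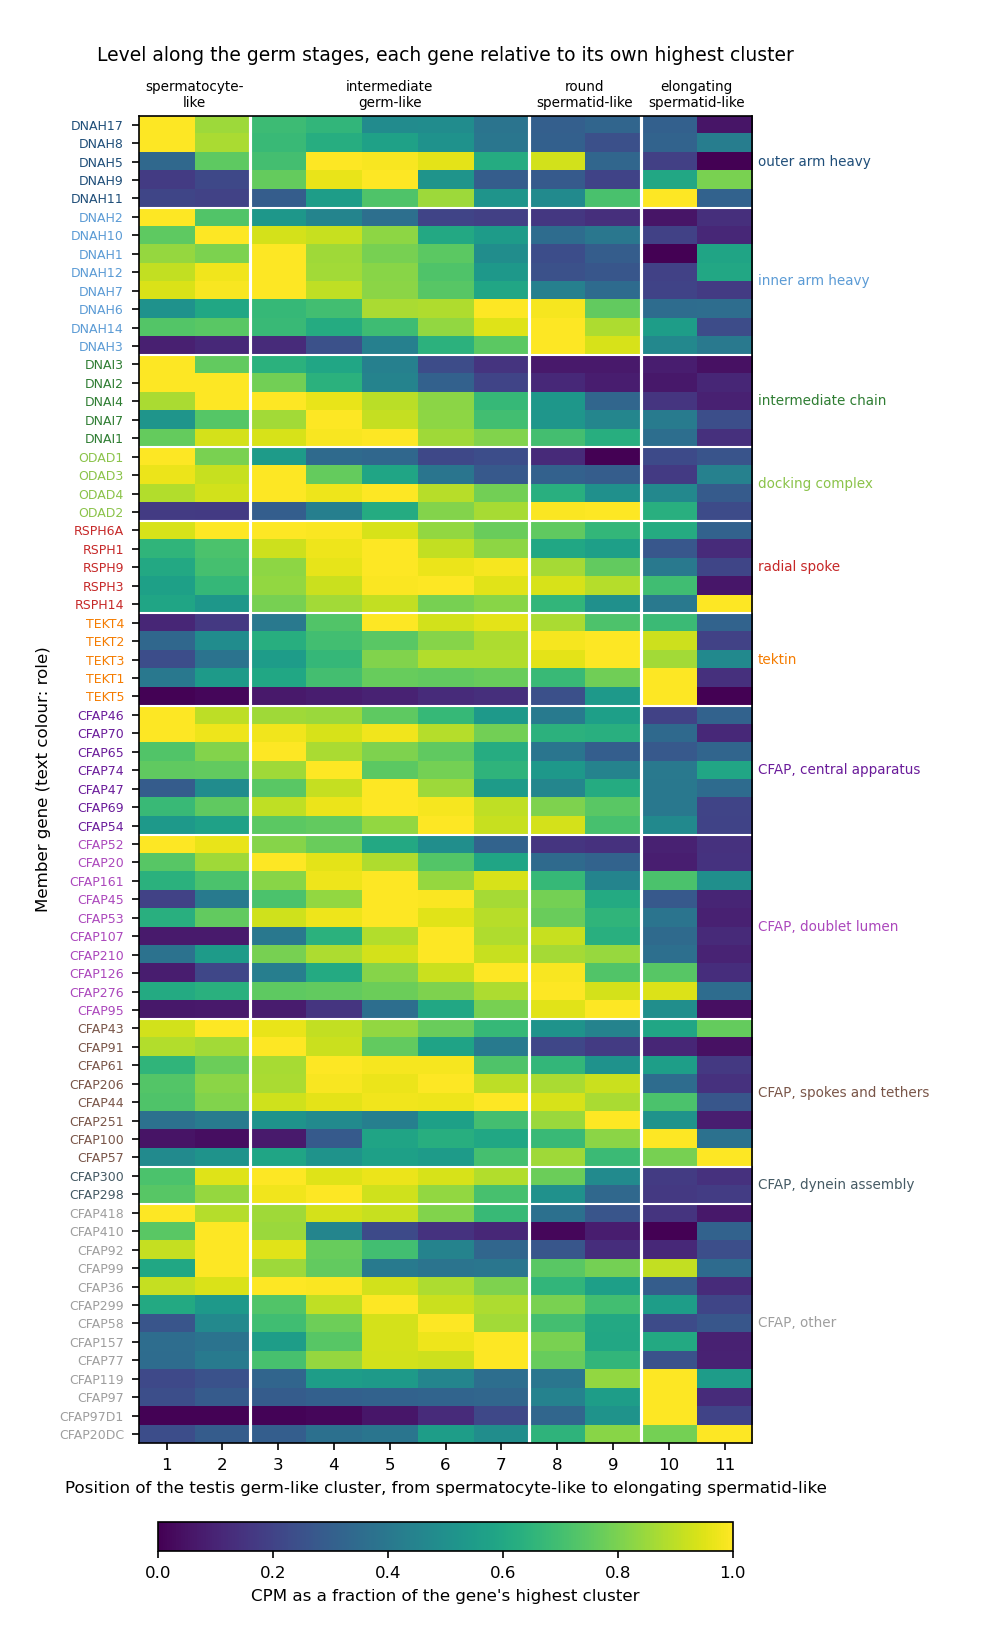
Level of 72 members (rows, grouped and coloured by role) in the 11 testis germ-like clusters (columns, in marker order), as CPM divided by the gene's own highest cluster. DNAI2, DNAI3, DNAH8 and DNAH17 are brightest in the first clusters, RSPH1 and RSPH9 in the middle, and TEKT5 and CFAP97D1 in the tenth.

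Among the outer arm heavy chains, DNAH8 and DNAH17, the pair used in the sperm tail, were highest in spermatocyte-like cells. DNAH8 read 119.8, 70.0, 37.5 and 43.4 CPM in stage order, and DNAH17 read 89.3, 51.1, 29.3 and 24.1 CPM. From spermatocyte-like to round cells DNAH8 was 3.20-fold lower (2.72 to 3.78) and DNAH17 3.05-fold lower (2.54 to 3.69). DNAH5, DNAH9 and DNAH11, which power outer arms of motile cilia in airway-type epithelium, were sparse in the testis. DNAH5 lay between 1.20 and 6.94 CPM, DNAH9 between 6.53 and 23.9 CPM and DNAH11 between 3.48 and 14.5 CPM, and for none of them could the highest stage be told from the next.

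Inner arm heavy chains differed in direction between spermatocyte-like and round cells. DNAH2 read 70.3, 27.9, 12.7 and 6.02 CPM and was 5.52-fold lower (4.21 to 7.38) in round than in spermatocyte-like cells. DNAH12 (75.9, 63.2, 20.2 and 22.9 CPM) was 3.76-fold lower (3.02 to 4.73). DNAH1 (15.2, 14.1, 4.54 and 2.41 CPM) was 3.34-fold lower (2.101 to 5.61), a call lost in 6 alternatives besides the 4-fold limit. DNAH7 and DNAH10 had lower values in round cells (52.0 against 119 CPM, 17.3 against 41.5 CPM), but their intervals reached inside 2-fold.

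DNAH3 ran the other way. It stood at 6.70 CPM in spermatocyte-like cells (79 UMIs), 29.4 in intermediate, 65.6 in round (289 UMIs) and 30.1 in elongating cells, a 9.79-fold rise (7.61 to 12.7) to the round stage. DNAH6 (98.8, 149, 171 and 63.9 CPM) and DNAH14 (153, 158, 204 and 101 CPM) were also highest in round cells, by 1.73-fold (1.58 to 1.90) and 1.33-fold (1.23 to 1.44) over spermatocyte-like cells, below the 2-fold limit. As a group the 13 heavy chains summed to 805, 740, 639 and 364 CPM. In T or NK-like cells the sum was 226 CPM (129 to 367), an interval that overlapped the one of elongating cells (324 to 407). With each cell thinned to 298 UMIs, a heavy chain UMI was found in 21.9% of spermatocyte-like cells (94.1% unthinned), in 6.56% of elongating cells (3.43 to 11.2; 66.1% unthinned) and in 6.67% of T or NK-like cells (0.818 to 22.1; 36.7% unthinned; median depths 5250, 3592 and 2147 UMIs). With 30 T or NK-like cells, the interval of their share took in the share of spermatocyte-like cells as well. The thinned shares could therefore not tell either stage from background.

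The intermediate chains were highest early. Their sum was 964 CPM (946 to 982) in spermatocyte-like, 685 in intermediate, 315 in round and 149 CPM (124 to 178) in elongating cells. In T or NK-like cells the sum was 113 CPM (48.7 to 222) on 8 UMIs, so the elongating level could not be told from background. DNAI2, an outer arm chain, read 449, 213, 49.5 and 33.7 CPM, so it was 9.06-fold lower (7.91 to 10.4) in round than in spermatocyte-like cells. DNAI3, an inner arm chain, read 106, 48.6, 8.18 and 8.43 CPM and was 13.0-fold lower (9.32 to 18.6), and its 2 UMIs in T or NK-like cells correspond to 28.2 CPM. DNAI1, the partner of DNAI2 in the outer arm, changed much less (65.3, 71.4, 53.4 and 24.1 CPM), with a round to spermatocyte-like ratio of 0.818 (0.704 to 0.948). DNAI7 was similar (69.3, 96.2, 57.7 and 42.2 CPM), and DNAI4 (274, 256, 146 and 41.0 CPM) fell 3.56-fold (2.52 to 5.19) between round and elongating cells.

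In the docking complex, members of a single structure had opposite profiles. ODAD2 read 56.9, 202, 330.5 and 179.5 CPM and rose 5.80-fold (5.29 to 6.37) from spermatocyte-like to round cells. ODAD1 (18.8, 6.94, 2.04 and 4.82 CPM, 221 UMIs against 9) was 9.17-fold lower (4.75 to 20.3) in round cells, and ODAD3 (34.9, 22.1, 11.4 and 8.43 CPM) was 3.07-fold lower (2.29 to 4.21). ODAD4 stayed nearly level between the first stages (456 and 468 CPM, not told apart) and then stood at 307 and 214 CPM.

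For the 5 radial spoke genes tested, the whole interval lay within 2-fold between round and spermatocyte-like cells. RSPH1, a spoke head protein, read 358, 486, 309 and 125 CPM. RSPH9, also of the head, read 501, 734, 654 and 277 CPM, and RSPH3, of the stalk, 212, 326, 323 and 192 CPM. None of the 5 genes tested passed 2-fold between round and spermatocyte-like cells, where their ratios ran from 0.763 for RSPH6A to 1.52 for RSPH3. Among all features tested, 30.8% were higher and 20.1% lower in round cells. RSPH6A, the head protein used in sperm, read 232, 217, 177 and 131 CPM, while its ciliary counterpart RSPH4A had 13 UMIs in the whole testis library. RSPH14 was low throughout, between 14.5 and 22.6 CPM. Between round and elongating cells RSPH9 was 2.36-fold lower (2.06 to 2.71) and RSPH1 2.47-fold lower (2.02 to 3.04), both calls being lost under other scalings of the counts.

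By stage, all 5 tektins were lowest in spermatocyte-like cells, but the elongating stage joined a cluster with a high and a cluster with a low tektin level. Their sum was 518 CPM (505 to 531) in spermatocyte-like, 1006 in intermediate, 1198 in round and 1216 CPM (1142 to 1293) in elongating cells. Within the elongating stage it was 1478 CPM in the earlier and 307 CPM in the later cluster, the lowest tektin sum of the 11 germ-like clusters. TEKT5 read 3.31, 25.996, 76.3 and 201 CPM (39, 592, 336 and 167 UMIs), and was 23.1-fold higher (16.5 to 33.0) in round than in spermatocyte-like cells. TEKT4 (11.3, 68.4, 71.5 and 50.6 CPM), TEKT3 (74.8, 189, 240.5 and 193 CPM) and TEKT2 (177, 331, 433 and 334 CPM) rose 6.34-fold (5.16 to 7.82), 3.21-fold (2.94 to 3.52) and 2.45-fold (2.30 to 2.61). TEKT1 read 252, 391, 376 and 437 CPM, a ratio of 1.49 (1.41 to 1.59) that did not pass.

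Thinned to 298 UMIs, 14.2% of spermatocyte-like cells had a tektin UMI (87.7% unthinned), against 25.6% of round cells (98.2% unthinned) and 25.7% of elongating cells (82.5% unthinned). In T or NK-like cells the thinned share was 0 of 30 and the unthinned share 23.3%. These elongating shares pool both clusters, and the earlier one held the higher tektin level.

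**Figure D2:**
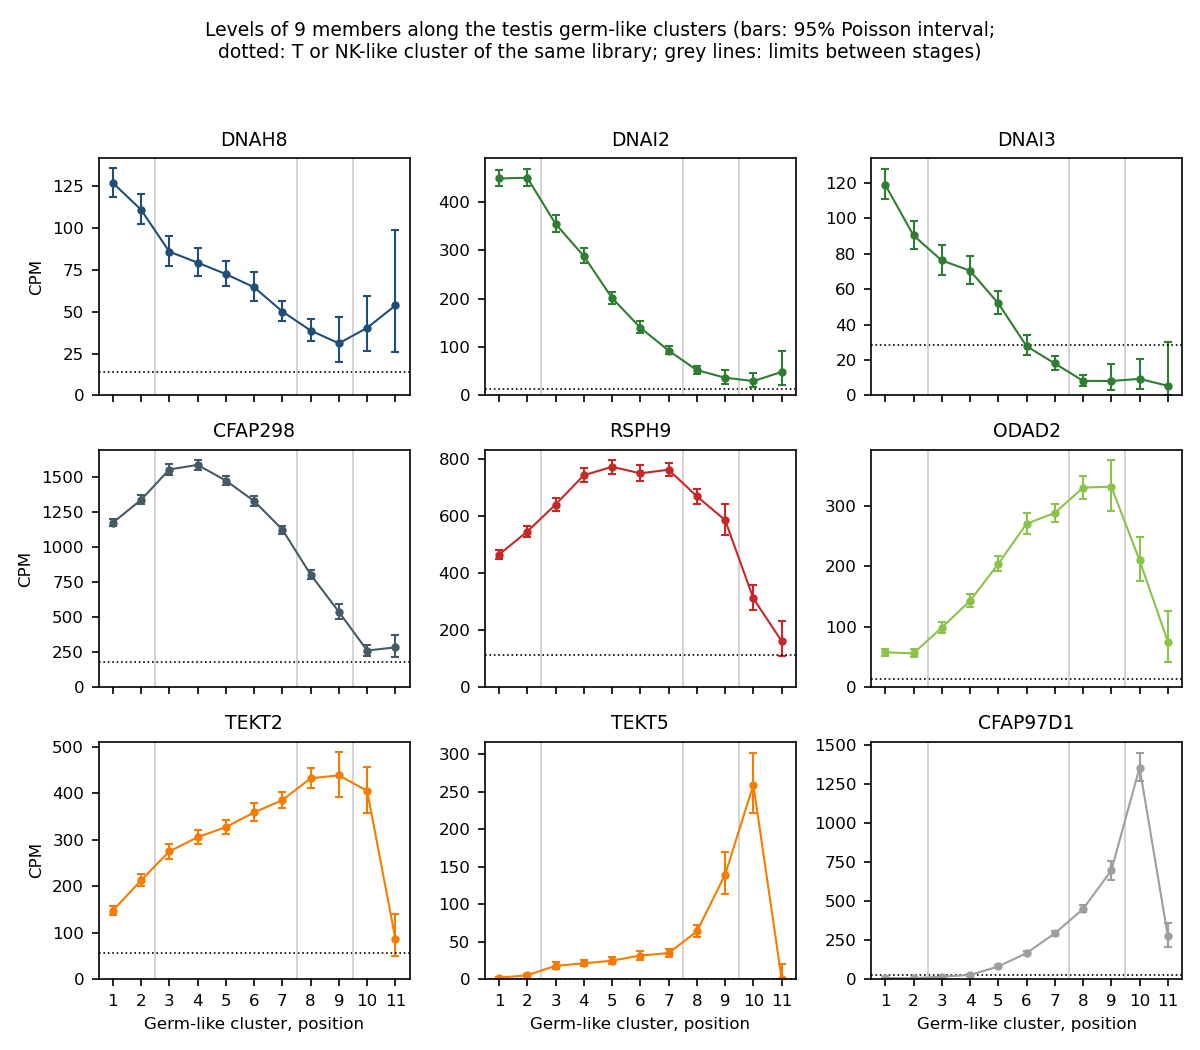
CPM (vertical axis, starting at 0) of 9 members in the 11 testis germ-like clusters in marker order, with 95% Poisson intervals; the dotted line is the level in T or NK-like cells. DNAI2 and DNAI3 decline from the first clusters, CFAP298 and RSPH9 peak between, ODAD2 and TEKT2 peak near the round stage, and TEKT5 and CFAP97D1 peak in the tenth cluster and are low in the eleventh.

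CFAP genes of the doublet lumen, the proteins that line the inside of the microtubules, had 4 of 10 genes higher and 2 lower in round than in spermatocyte-like cells, where 30.8% and 20.1% of all features tested were. They summed to 1722, 2998, 2717 and 1171 CPM. CFAP210 read 751, 1489, 1421 and 506 CPM and CFAP45 read 140.1, 418, 362 and 113 CPM, the latter 2.59-fold higher (2.41 to 2.77) in round than in spermatocyte-like cells. CFAP95 (8.23, 50.9, 121 and 49.4 CPM), CFAP107 (3.22, 34.2, 39.1 and 13.3 CPM) and CFAP126 (33.9, 185, 231 and 147 CPM) rose 14.7-fold (11.8 to 18.5), 12.1-fold (8.49 to 17.7) and 6.81-fold (6.06 to 7.66). CFAP52 was the exception among those named: it read 263, 159, 40.9 and 27.7 CPM and was 6.43-fold lower (5.53 to 7.51) in round cells. CFAP53, by contrast, was nearly level (199, 273, 216 and 91.6 CPM).

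CFAP298 and CFAP300, which help preassemble dynein arms in the cytoplasm, were highest in intermediate cells. CFAP298 read 1250.4, 1411, 761 and 268 CPM, and CFAP300 126, 145, 111 and 25.3 CPM. From round to elongating cells CFAP298 fell 2.84-fold (2.48 to 3.27) and CFAP300 4.39-fold (2.84 to 7.16). Of 6 central apparatus CFAP genes tested, 0 had the whole interval beyond 2-fold between round and spermatocyte-like cells. Among all features tested, 30.8% were higher and 20.1% lower in round cells. CFAP46 was nonetheless 2.19-fold lower (1.89 to 2.57) and CFAP65 2.05-fold lower (1.62 to 2.63) in round cells, and CFAP54 1.62-fold higher (1.47 to 1.80), these 3 being named after their values were seen. CFAP69 read 377, 503, 421 and 189 CPM and CFAP70 read 374, 345, 243 and 109.7 CPM.

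Among CFAP genes of spokes, tethers and inner arm regulation, CFAP44 (443, 563, 539 and 358 CPM) and its tether partner CFAP43 (489, 420, 255 and 319 CPM) differed in their highest stage. CFAP251, a spoke protein, read 124, 171, 275 and 131 CPM and was 2.23-fold higher (2.06 to 2.40) in round cells, while CFAP91, of the spoke base, read 103, 85.8, 24.1 and 10.8 CPM and was 4.28-fold lower (3.51 to 5.27). CFAP100, an inner arm regulator, read 2.63, 24.9, 40.4 and 49.4 CPM, a rise of 15.4-fold (10.5 to 23.3) to round cells. CFAP206 was close to level up to the round stage (146, 178, 166 and 57.8 CPM).

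The CFAP genes given no role here held both ends of the range. CFAP97D1, a sperm axoneme protein, read 6.36 CPM in spermatocyte-like cells (75 UMIs), 120.3 in intermediate, 490.4 in round (2159 UMIs) and 1112 in elongating cells, a 77.1-fold rise (61.2 to 98.3) by the round stage. Its relative CFAP97 read 299, 357, 527 and 915 CPM. At the other end, CFAP410 had 173 UMIs in spermatocyte-like and 2 in round cells (14.7 and 0.454 CPM, 32.3-fold lower, 8.81 to 269). CFAP36 read 1639, 1628, 1138 and 452 CPM and CFAP58 93.3, 221, 178 and 61.5 CPM. CFAP92 and CFAP418 were 3.89-fold (3.28 to 4.65) and 2.69-fold (2.24 to 3.27) lower in round than in spermatocyte-like cells.

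For these counts a gene was called if the 95% interval of its ratio lay wholly beyond 2-fold and its higher group had 50 UMIs or more. Of the 75, 68 had enough UMIs to be tested between round and spermatocyte-like cells: 14 were higher in round cells, where 30.8% of all features tested were, and 15 were higher in spermatocyte-like cells, where 20.1% of all features were. For 7 of the 29 called genes the lower group had under 50 UMIs, so that they entered only through the group where they were high. The median log2 ratio was 0.04 over the tested members and -0.26 over all features. The upward count was a smaller share than the background and the downward count close to it, so the counts are no result about these genes as a set. By name, 4 of 5 tektins rose and 0 fell, 1 of 10 heavy chains rose and 5 fell, 0 of 5 intermediate chains rose and 2 fell, and 8 of 39 CFAP genes rose and 6 fell. For 29 of the 68 the whole interval lay within 2-fold in both directions.

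**Figure D3:**
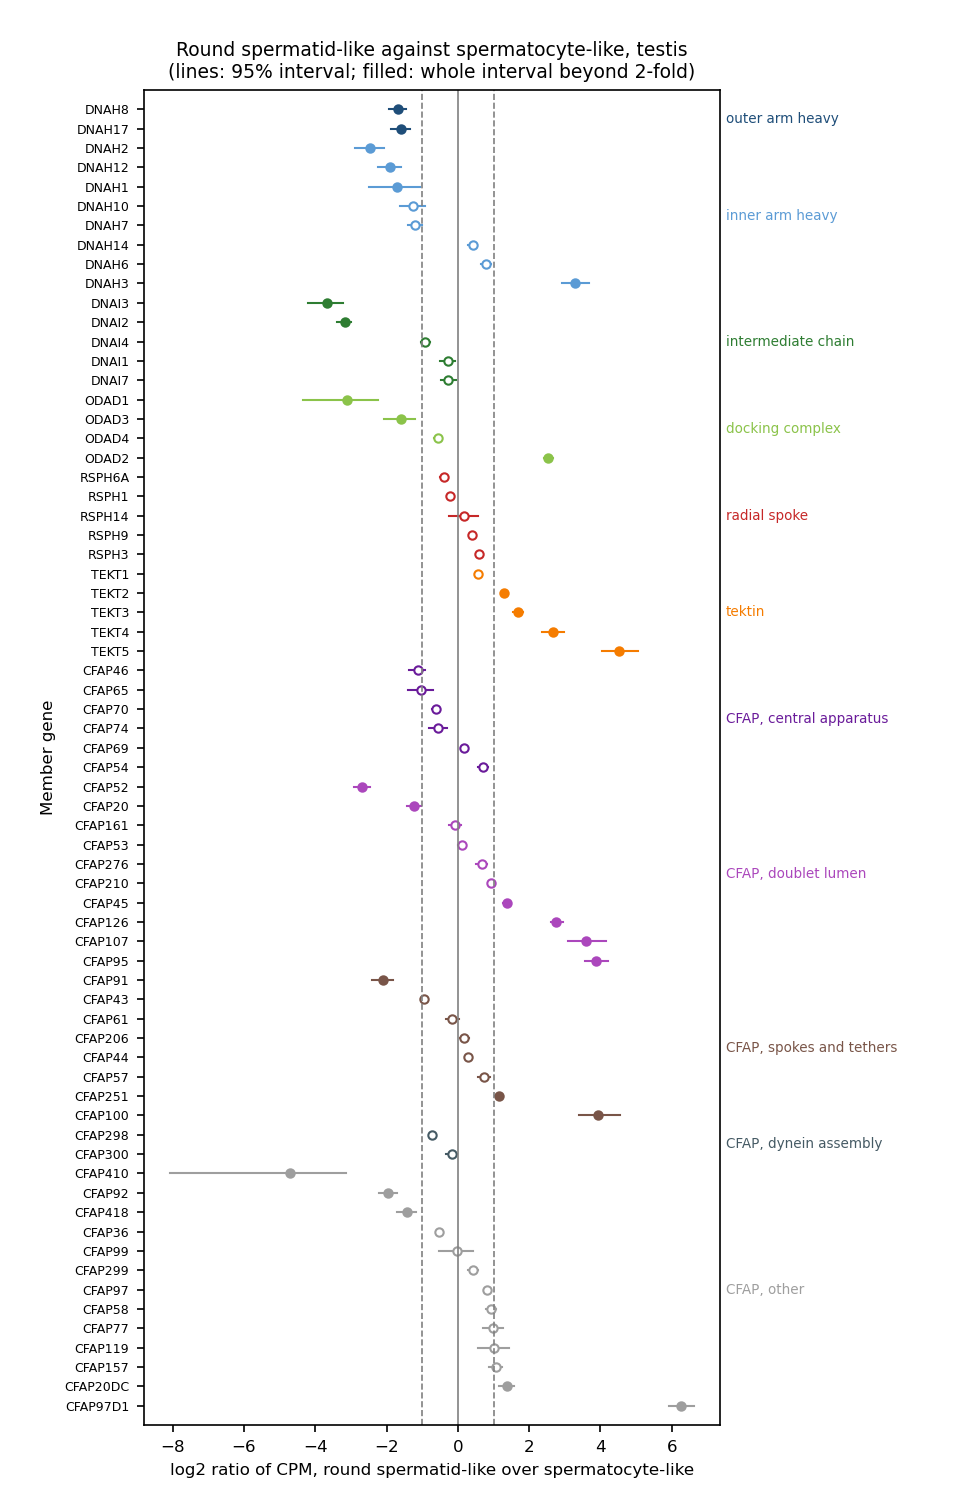
log2 ratio of CPM in round over spermatocyte-like cells for the 68 members tested, with 95% intervals, grouped by role; filled points have the whole interval beyond 2-fold (dashed lines). Points run from CFAP410 far to the left to CFAP97D1 at 6.26, and all 5 tektins lie to the right of 0.

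Between round and elongating cells few of these genes passed. Of 59 tested, 12 were higher in round cells (11.3% of all features were) and 2 in elongating cells (7.72% of all features), and the median log2 ratio was -0.88 against -0.70 over all features. For 26 of the 59, 4 of them called, the other group had under 50 UMIs, so they entered only through the group where they were high, and the count and median are no support for a direction. The 12 included CFAP298, CFAP300, DNAI4, CFAP45, CFAP210, CFAP36, RSPH1, RSPH9 and DNAH6. DNAH6 was 2.67-fold lower (2.02 to 3.60), a call lost in 10 alternatives besides the 4-fold limit. The 2 that rose were TEKT5 (2.64-fold, 2.18 to 3.18) and CFAP97D1 (2.27-fold, 2.098 to 2.45), and both dropped inside 2-fold under other cluster resolutions or with doublet calls kept.

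The elongating stage itself was uneven. Its earlier cluster (120 cells) and its later cluster (63 cells) differed for 9 of 27 members tested. All 9 were higher in the earlier cluster (29.3% of all features tested were), and 0 in the later one (9.13% of all features were). All of them but CFAP97D1 had under 50 UMIs in the later cluster, so they entered only through the cluster where they were high. The counts are therefore no support for a direction. TEKT5 had 167 UMIs in the earlier cluster (259 CPM) and 0 in the later one. CFAP97D1 stood at 1354 CPM in the earlier and 274 CPM in the later cluster, 4.94-fold lower (3.72 to 6.68), and TEKT1 at 542 and 75.3 CPM, 7.20-fold lower (4.23 to 13.3). The rise of TEKT5 and CFAP97D1 into the elongating stage therefore rests on the earlier of its clusters.

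Other genes of the flagellum were summed from lists outside the name rule. Other axoneme genes (50 measured) stood at 14144, 14386, 10565 and 6454 CPM. Of these genes, 4 of 47 tested were higher in round cells (30.8% of all features tested were) and 10 higher in spermatocyte-like cells (20.1% of all features were). Of their most abundant genes, MNS1, a doublet lumen protein, read 1375, 1393, 868 and 404 CPM, and ROPN1L, a spoke protein, read 1484, 1602, 1638 and 1644 CPM. Intraflagellar transport genes, the carriers that build cilia, stood at 1890.2, 2402, 1913 and 1311 CPM, with 1 of 19 higher in round cells and 3 lower. Outer dense fibre and fibrous sheath genes, the accessory parts of the sperm tail, rose in sum instead, with 11388, 11934, 13164 and 19671 CPM. In this list 9 of 13 were higher in round cells and 0 lower, where 30.8% and 20.1% of all features tested were. ODF2, of the dense fibres, read 1606, 1604, 1675 and 4249 CPM.

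Of the transcription factors listed for cilia and spermatids, 1 of 9 tested was higher in round and 3 in spermatocyte-like cells (30.8% and 20.1% of all features tested were). RFX4 read 473, 276, 201 and 83.1 CPM, 2.35-fold lower in round cells. The others, named after their values were seen, were RFX2 (361, 200.3, 119 and 71.1 CPM), FOXJ1 (248 UMIs in spermatocyte-like and 7 in round cells) and, rising, SOX30 (2.57-fold). CREM, the activator of spermatid genes, read 592, 711, 867 and 508 CPM and did not pass.

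In whole libraries, the 75 genes made up 13830 CPM (13795 to 13864) in testis, 4219 CPM (4184 to 4255) in caput and 4237 CPM (4174 to 4300) in corpus. Fewer cells of a type and less RNA per cell cannot be told apart in such sums. Of the 75, 72 had at least 50 UMIs in testis, 71 in caput and 51 in corpus. The make-up of these UMIs changed with the tissue: heavy chains were 5.47% of member UMIs in testis, 33.9% in caput and 41.7% in corpus, while radial spoke genes were 11.3, 3.60 and 1.49% and tektins 6.22, 1.81 and 1.015%. The T or NK-like cells of the testis had a heavy chain share of 9.30% (16 of 172 UMIs), nearer to the testis germ-like stages than to the T or NK-like cells of the caput (35.9%).

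Testis against caput, 40 of 74 tested members were higher in testis, where 18.9% of all features were, and 9 were higher in caput, where 54.2% of all features were. For 5 of the 74, all of them called, the other library had under 50 UMIs, so they entered only through the library where they were high. The median log2 ratio was 1.46 over members and -1.69 over all features. All 5 tektins were higher in testis: TEKT2 stood at 288 CPM in testis and 12.2 CPM in caput, 23.6-fold (20.2 to 27.8), and TEKT5 at 26.3 and 9.85 CPM, 2.67-fold (2.23 to 3.23). CFAP126 was 21.1-fold (17.03 to 26.4), CFAP210 18.0-fold (16.8 to 19.2), RSPH9 15.7-fold (14.4 to 17.2) and ODAD4 15.5-fold (14.01 to 17.2) higher in testis.

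No heavy chain was called higher in testis, and 4 of 13 were higher in caput, where 54.2% of all features were, so this count does not set them apart. DNAH5 stood at 6.92 CPM in testis (323 UMIs) and 104 CPM in caput (1370 UMIs), 15.0-fold higher (13.3 to 16.99) in caput. DNAH11 (9.57 and 139.9 CPM) was 14.6-fold (13.2 to 16.2) and DNAH9 (18.5 and 125 CPM) 6.75-fold higher (6.22 to 7.34). RSPH4A, the ciliary spoke head gene, was 23.4-fold higher (13.0 to 45.7) in caput on 86 UMIs against 13. Of those 86 UMIs, 64 (74.4%) lay in the cluster without a cell type name described next, which held 42.4% of all caput UMIs. So did 69.9, 70.0 and 68.3% of the caput UMIs of DNAH5, DNAH9 and DNAH11.

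In the caput, 4433 of 9478 cells (46.8%) fell in a cluster led by very long genes and carrying no marker list well enough to be named. It held 31397 of the 55709 member UMIs (56.4%, 55.9 to 56.8) with 42.4% of all UMIs, and 66.3% of the heavy chain UMIs. Its member level was 5606 CPM, against 2185 to 2771 CPM over the 5 named somatic classes (luminal epithelial-like, fibroblast-like, macrophage-like, T or NK-like, clear or narrow-like). In the sum of all members those 5 lay near the testis T or NK-like level of 2427 CPM, the luminal class at 0.962 of it (0.827 to 1.13). The make-up of the sums differed. Heavy chains stood at 700 to 944 CPM in the 5 classes, or 31.2 to 36.0% of member UMIs. In testis T or NK-like cells they stood at 226 CPM, or 9.30%. In the corpus the matching clusters (5413 of 9607 cells) stood at 5683 CPM and the 5 named classes at 1606 to 3339 CPM.

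No cluster in either epididymal library was named multiciliated by its markers. The summed multiciliated markers, which spermatocyte-like cells of the testis also held at 8457 CPM, stood at 394 CPM in caput luminal cells.

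Against the other somatic cells of the caput, 28 of 62 members tested were higher in the very-long-gene cluster, where 25.2% of all features were, and 0 were lower, where 15.7% of all features were. For 5 of the 62, 2 of them called, the other group had under 50 UMIs, so they entered only through the group where they were high. Heavy chains were 11 of the 28, from 2.34-fold (2.03 to 2.70) for DNAH3 to 3.12-fold (2.76 to 3.53) for DNAH5. DNAH5 stood at 171 CPM there, 52.2 in luminal, 67.1 in fibroblast-like and 67.9 CPM in T or NK-like cells. With counts scaled so that the median log2 ratio of shared features is 0, no member was higher in the cluster and 2 were lower. The members' calls therefore rest on how the counts are scaled. Shares of all features under that scaling are not given here. Gene length was not measured here and its part in the result was not tested.

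Shares of cells gave the same order. Thinned to 298 UMIs, 46.0% of cells of the very-long-gene cluster had a heavy chain UMI (84.6% unthinned), against 18.9% of luminal (50.1%), 19.8% of fibroblast-like (59.1%) and 21.7% of T or NK-like cells (56.1%), at median depths of 1097, 1156, 1246.5 and 1187 UMIs. The luminal share was no higher than that of T or NK-like cells of the caput. Heavy chains summed to 936 CPM in those T or NK-like cells, against 226 CPM in T or NK-like cells of the testis. Whether the luminal share is background was not tested. In the corpus, 44 members were tested in the same comparison: 6 were higher in the very-long-gene clusters (6.35% of all features were) and 0 lower (17.1% of all features). They were DNAH6, DNAH8, DNAH12, DNAH14, CFAP61 and CFAP299, at 2.31- to 2.67-fold. The other group had under 50 UMIs for 12 of the 44, with 0 of the 6 called among them.

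**Figure D4:**
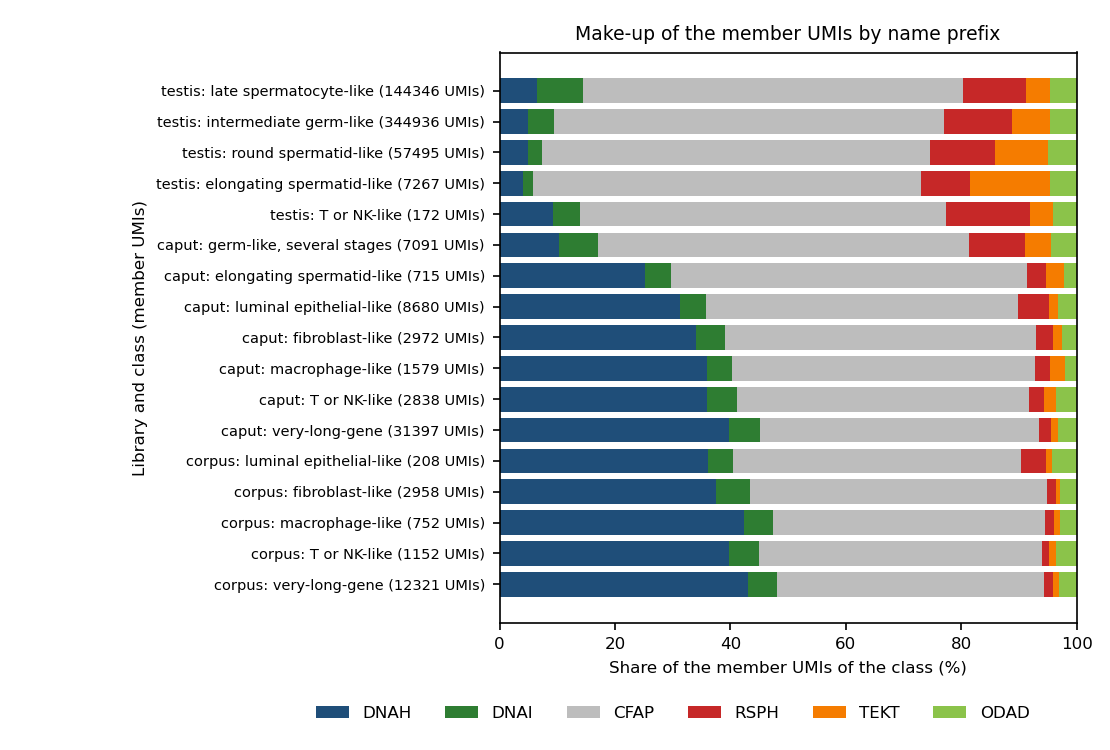
Share of member UMIs by name prefix (stacked bars, percent) in 17 classes of the 3 libraries, with the member UMIs of each class in brackets. Heavy chains are a thin band in the 4 testis stages and in the caput germ-like cells of several stages, and a much wider band in the epididymal somatic classes.

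The germ-like barcodes of the caput formed 2 clusters that differed in these genes. One cluster (149 cells) had markers of several germ stages and stood at 11459 CPM for the members, 4.72-fold (4.06 to 5.53) the testis T or NK-like level. The other (119 cells) had elongating spermatid markers along with fibroblast, T or NK and macrophage markers, and stood at 3977 CPM. Heavy chains were 10.3% and tektins 4.58% of member UMIs in the first. In the second they were 25.2% and 3.08%, against 4.16% and 13.9% in elongating cells of the testis. Together they were 2.83% of caput cells with 6.05% of its UMIs, yet held 14.01% (13.7 to 14.3) of member UMIs. By name they held 35.7% of the radial spoke, 34.4% of the tektin, 17.2% of the CFAP and 4.83% of the heavy chain UMIs. For TEKT2 the share was 60.2% (52.2 to 67.9) of 161 UMIs, for CFAP298 57.2% (54.3 to 60.0) of 1189 and for RSPH9 55.2% (50.9 to 59.5) of 527.

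Against the named somatic classes of the caput, 37 of 52 members tested were higher in the germ-like cells, where 12.9% of all features were, and 0 were higher in somatic cells, where 13.3% of all features were. For 8 of the 52, 3 of them called, the other group had under 50 UMIs, so they entered only through the group where they were high. With the median log2 ratio of shared features scaled to 0 the split was 23 higher and 3 lower. The shares of all features under that scaling are not given here, so this split does not set the members apart. DNAI2 stood at 219 CPM in germ-like and 9.59 CPM in somatic cells, 22.8-fold (17.1 to 30.9). TEKT2 was 19.1-fold (13.2 to 28.1), CFAP298 18.0-fold (15.8 to 20.7), ODAD4 16.9-fold (13.1 to 21.8) and RSPH6A 14.8-fold higher (10.7 to 20.7). Every RSPH, TEKT, DNAI and ODAD gene tested (13 in all) passed, and 22 of 28 CFAP genes did. A gene higher in germ-like cells was tested only with 50 UMIs or more there, so these counts are no support for a direction. Of 23 members not tested, 14 had under 50 UMIs in both groups. Untested ratios fell on either side of the limit: TEKT5 2.08 (1.04 to 3.87), ODAD1 1.28 (0.526 to 2.71) and ODAD3 13.3 (6.80 to 26.6). Of 11 heavy chains tested only DNAH17 (4.43-fold, 3.17 to 6.14) and DNAH2 (2.80-fold, 2.09 to 3.71) passed, and the call of DNAH2 was lost in 5 alternatives besides the 4-fold limit. DNAH5, DNAH9 and DNAH11 had ratios below 1 (0.892, 0.398 and 0.395).

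**Figure D5:**
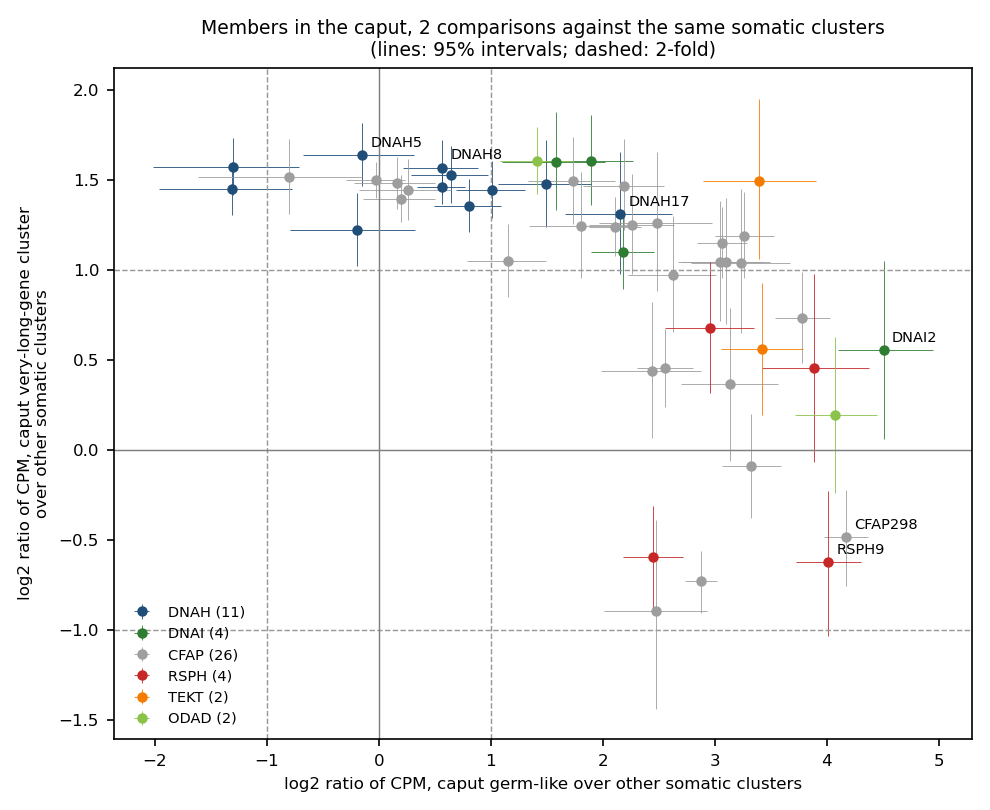
log2 ratios over the same caput somatic clusters for 49 members tested in both comparisons, germ-like cells on the horizontal and the very-long-gene cluster on the vertical axis, with 95% intervals and dashed lines at 2-fold. The comparisons share their lower group. Heavy chains (dark blue) sit high and mostly left of the 2-fold line, whereas DNAI2, RSPH9 and CFAP298 sit far to the right and low.

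Members high in elongating cells of the testis did not all have their higher level in the elongating spermatid-like caput cluster. CFAP97 had 79 UMIs in the elongating spermatid-like caput cluster (439 CPM), 193 in the cluster of several stages (312 CPM) and 30.1 CPM in luminal cells. CFAP97D1 had 26 UMIs (145 CPM) and 28 UMIs (45.2 CPM) in the germ-like clusters and 4.84 CPM in luminal cells. The CFAP97 ratio between these clusters was 1.41 (1.07 to 1.84), which did not pass. TEKT5 had 0 UMIs in the elongating spermatid-like caput cluster, as in the later elongating cluster of the testis. TEKT1 (7 against 137 UMIs) was 5.69-fold and TEKT2 (5 against 92 UMIs) 5.34-fold lower there than in the cluster of several stages, whereas in the testis their ratios of elongating to earlier germ-like cells were 1.26 (1.13 to 1.40) and 1.13 (0.997 to 1.27).

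Between caput and corpus, 8 of 69 members tested were higher in caput (7.02% of all features were) and 0 in corpus (1.77% of all features). They were TEKT2, CFAP298, RSPH9, CFAP276, RSPH1, ODAD4, CFAP36 and CFAP210. CFAP298 had 1189 UMIs in caput and 41 in corpus (90.1 and 9.90 CPM), 9.10-fold (6.66 to 12.7). TEKT2 had 161 and 2 UMIs, a ratio of 25.2 (6.88 to 210.3), and RSPH9 527 and 32 UMIs, 5.17-fold (3.61 to 7.63). For 6 of the 8 the corpus had under 50 UMIs. Without the germ-like barcodes of the caput, 3 of the 8 still passed, TEKT2, CFAP298 and RSPH1. No heavy chain was called between the segments. The 13 ratios of caput to corpus were all below 1, from 0.534 for DNAH1 to 0.914 for DNAH12. The DNAH1 interval (0.403 to 0.712) reached beyond 2-fold. Intervals included 1 for DNAH8, DNAH10, DNAH12 and DNAH17 and lay below 1 for the other heavy chains.

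RSPH1, 1 of those 3, had 220 UMIs in luminal cells of the caput (59.2 CPM), against 299 CPM in the germ-like cluster of several stages and 22.0 CPM among T or NK-like cells.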

How the data were processed

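Droplet single-cell RNA libraries of donkey testis, caput and corpus were analysed, 1 per tissue. The files hold raw UMI counts per gene and barcode, made by the authors with PISA 0.12 per the file headers. Cell Ranger 2.1.1 is named without a role in the submitters' processing notes, and neither a genome build nor an aligner's name was found there (not given in the sources used here). From these counts, cells with at least 200 genes were kept and clustered per library with scanpy 1.11.5 (2000 variable genes, 30 components, 15 neighbours, Leiden resolution 1, leidenalg 0.10.2) on Python 3.11.15. Naming thresholds were set after the clusters were seen. UMIs were summed per class, CPM were given exact Poisson 95% intervals, and ratios exact conditional binomial ones (scipy 1.17.1), while shares of cells and of UMIs have exact Clopper-Pearson intervals. All intervals cover counting error only. No test between tissues was possible with 1 library each. The scripts were tested on simulated data.

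The members, roles and gene lists were chosen with earlier results of these data known. Named genes were all DNAH, DNAI, ODAD, RSPH and TEKT genes, the 15 CFAP genes with the most UMIs in testis germ-like cells, up to 5 called CFAP genes per comparison and direction, and up to 3 genes per further list. All 75 members matched RefSeq symbols. No sequence is shown and promoter motifs were not searched, since no sequences of these genes were used here. Alternatives varied the UMI minimum, the fold limit, the scaling, the depth and the clustering.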

Additional observations from a re-analysis of the deposited data

Results flagged for a closer look

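Some signal lay in data that the comparisons did not use. The feature LOC106840508, which RefSeq names RSPH10B, a radial spoke gene, falls outside the name rule. It stood at 151.977 CPM in intermediate germ-like cells, against 106 CPM in spermatocyte-like, 119 CPM in round and 72.3 CPM in elongating cells, and 14.1 CPM (1 UMI) in T or NK-like cells.

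Testis barcodes left out of the 4 stages also carried the 75 genes above the T or NK-like level of 2427 CPM. The germ-like cluster with a high doublet score (68 cells) stood at 12831.5 CPM, the 3 mixed clusters (479 cells together) at 12278.5 CPM, and the 130 barcodes marked as doublets at 13408.3 CPM. These values lie within the range of the 4 stages. The cluster rich in very long genes, which was the largest group left out (823 cells, 9.71% of cells), stood at 14071 CPM, also within that range. Its heavy chain sum was 972 CPM (943 to 1003), against 805 CPM (789 to 821) in spermatocyte-like cells.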

How the results depend on the processing

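Of the recomputed counts, 151 stayed within 1.5 times their value and 27 did not; of the recomputed ratios of single members, 1662 kept their call, 258 lost it and 4 reversed. A 4-fold limit in place of 2-fold left 9 members higher and 6 lower in round than in spermatocyte-like cells, 0 in either direction between elongating and round cells, 24 higher in caput germ-like cells, 2 higher in caput than in corpus, and 0 higher in the very-long-gene cluster. Scaling to a median log2 ratio of 0 gave 7 members higher in round than in elongating cells, 23 higher in germ-like and 3 in somatic caput cells, and 0 higher and 2 lower in the very-long-gene cluster. This scaling moved the median log2 ratio of all features tested from -0.26 to -0.11 (round over spermatocyte-like), from -0.84 to -1.73 (caput germ-like over somatic), from -1.69 to -0.45 (testis over caput), from -0.08 to 0.12 (caput over corpus) and from 0.71 to 0.09 (very-long-gene cluster over other somatic cells). Dropping the 100 most abundant features also gave 7 higher in round than in elongating cells, and a minimum of 100 UMIs left 20 higher in caput germ-like cells. The 2 members higher in elongating cells became 0 with thinned sums, Leiden resolution 0.5 or 2.0, all features in the clustering or doublet calls kept, and 1 with cells ranked by markers. Shares of all features called under each setting are not given here, so these counts do not show whether the members moved apart from all features. The cause of these changes was not tested.

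The following were chosen after seeing the data, and shares of all features are not given for them either. The earlier elongating cluster alone gave 7 members higher in round cells. The later one alone gave 25, with 0 higher in elongating cells, where the log2 ratios of TEKT5 and CFAP97D1 reversed to -4.83 and -0.82. The caput germ-like cluster of several stages alone gave 1 member higher in somatic cells. Without very-long-gene clusters, 4 members were higher in caput than in testis and 14 higher in caput than in corpus, and without caput germ-like cells 3 were. Scaled to a median of 0, CFAP299 and CFAP20DC reversed from higher in caput to log2 ratios of 0.02 and 0.05 for testis over caput.

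No paired analysis was possible because each tissue has 1 library. Depth left 24 members under 50 UMIs in the corpus, and 16 members untested between elongating and round cells, 23 between caput germ-like and somatic cells and 31 in the very-long-gene comparison of the corpus.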
